A study of Mus musculus with 238 samples.

Results

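The olfactory bulb of dietary restricted and freely fed mice was compared by mRNA sequencing of whole tissue. Libraries were chosen by their labels alone, as those of the olfactory bulb in the dietary experiment, which gave 9 of the 238 libraries of the series. All mice were females of the strain C57BL/6JN at 19 months of age. The restricted group (aDR) held 5 mice, numbered 61, 62, 64, 65 and 67, and the group fed ad libitum (AL) held 4, numbered 63, 66, 68 and 69. Each bulb library came from its own mouse. The labels give neither the depth and length of the restriction nor the hour at which tissue was taken or food was given. Libraries of 14 other brain regions and of liver carry the same mouse numbers, and a separate experiment on males gave bulbs of mice injected with plasma of young mice (YMP, 3 mice) or with saline (PBS, 4 mice). Corpus callosum lacked mice 64 and 68, entorhinal cortex mouse 68 and hypothalamus mouse 61, and the restricted livers are labelled DR instead of aDR; by their mouse numbers they were taken as the same arm. Those males were 19 months old and of the same strain. The study asks, by its title, where in the central nervous system such interventions act.

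The olfactory bulb receives the axons of the sensory neurons of the nose, passes their signal to the cortex through mitral and tufted cells, and shapes it with granule and periglomerular interneurons, which are replaced throughout life by neuroblasts from the subventricular zone. It also holds a circadian clock of its own. In that clock, BMAL1 (encoded by Arntl) and CLOCK bind E-box elements and drive their own repressors, the PER and CRY proteins and CIART, the REV-ERB receptors (Nr1d1, Nr1d2), which repress Arntl, and output factors of the PAR bZIP family (Dbp, Tef, Hlf). Scarce food is known to shift this cycle in many tissues, to raise corticosterone, which acts on genes such as Fkbp5 through the glucocorticoid receptor, and to lower body temperature, to which the RNA-binding proteins RBM3 and CIRBP respond.

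The tissue carried the genes that define it. In AL bulbs Tbx21, a transcription factor of mitral and tufted cells, stood at 38.7 CPM (counts per 1e6 counts) against a median of 0.0313 CPM over the other regions, Doc2g at 526 against 3.19 CPM, and Cdhr1 at 496 against 4.47 CPM. These CPM are per 1e6 counts of the library total. All later CPM are per 1e6 counts of the scaled library. Depth was 6.33 to 14.6 M counts (M, 1e6) for 8 of the bulbs, and 1.83 M for aDR mouse 65. That library stood apart in other ways: 11934 genes had at least 10 counts, against 13659 to 14440 in the others, and Neurod6, a marker of neocortical excitatory neurons, stood at 23.1 CPM against 1.27 to 3.00 CPM. Over its tested markers, the neocortical list summed to 198 CPM there and to 109 to 123 CPM elsewhere, and the granule cell list to 4541 CPM against 5485 to 6073 CPM. Values without mouse 65 stand beside the called genes as a group, most of the gene lists and the contrast with cortex. The share of counts on mitochondrial genes was 2.80% ± 0.184 (SD, n = 5) in aDR and 3.16% ± 0.308 (SD, n = 4) in AL bulbs (exact permutation test, two-sided, p = 0.0476, adjusted over 4 library measures 0.190, smallest p possible 0.0159). No summed list of cell type markers separated the groups.

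Few genes differed between the diets, and clock genes led those that rose. Of 14119 genes tested, 31 were called with an adjusted p under 0.05 (0.220% of those tested), 16 higher in aDR (0.113%) and 15 lower (0.106%). Ciart, Fkbp5, Tef, Plin4, Hrh3, Nr1d1 and Per2 led the higher genes in order of p, and Mir670hg, Tst and Hist1h1c the lower ones. Changes were small, with absolute log2 changes of 0.26 to 1.65 and a median of 0.50. In all 31 the CPM of the groups did not overlap, which held for 5.13% of all tested genes (2.90% with aDR above AL, 2.23% below). In all, 1931 genes had an unadjusted p under 0.05, 935 higher and 996 lower. In whole tissue, fewer cells of a type and less RNA per cell cannot be told apart.

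The number of calls depended on which libraries were included. Leaving out aDR mouse 65 gave 48 calls, 31 of which were the calls above, and leaving out aDR mouse 62 gave 40. Calls numbered 2 without aDR mouse 64 or AL mouse 66, 4 without AL mouse 63, 6 without aDR mouse 61 or AL mouse 68, 15 without AL mouse 69 and 20 without aDR mouse 67. Ciart was called in all 9 of these fits, Fkbp5 in 8, Tef in 7 and Plin4 in 6, and each of the 31 genes kept its direction in all of them. Sizes moved less than the calls. Over these fits the log2 change was 1.01 to 1.11 for Ciart, 0.61 to 0.70 for Fkbp5, 0.41 to 0.46 for Tef and 1.48 to 1.85 for Plin4. A second limit was transcript length: when the trend of each library with exonic length was removed, 15 genes were called, all of them among the 31, and 12 of these were higher.

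**Figure D1:**
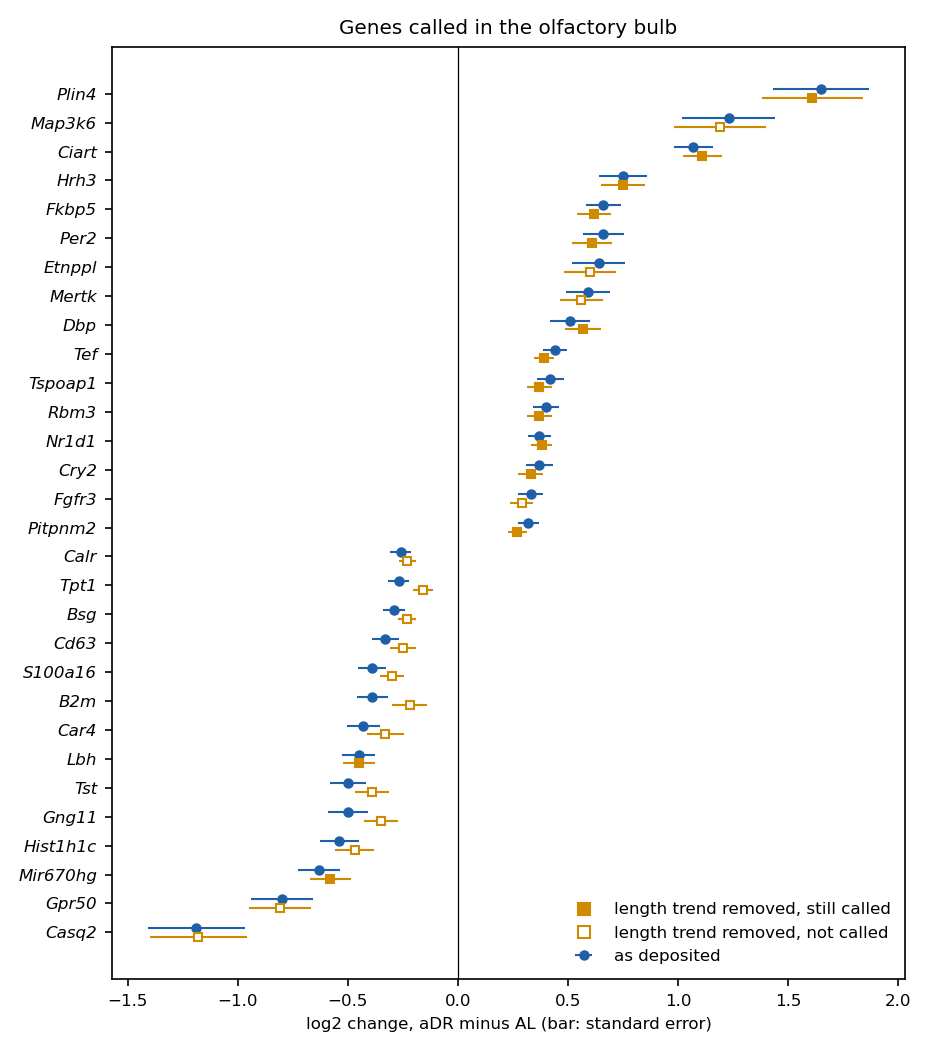
Log2 change (aDR minus AL, horizontal axis) with its standard error for called genes; circles are the fit to the deposited counts and squares the fit after each library's trend with exonic length was removed, filled where the gene was still called. Of the 16 higher genes 12 have filled squares, and of the lower genes shown Mir670hg and Lbh do.

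The repressors of the clock were higher in restricted bulbs. All 12 genes of the list of clock repressors had a log2 change above 0, with a median of 0.31 against 0.0042 over all genes tested. By the test 4 rose, Ciart, Per2, Nr1d1 and Cry2, against 0.113% of all genes. In 8 every aDR bulb lay above every AL bulb, against 2.90% of all genes. Without mouse 65 the list held 12 of 12 above 0 and the same number of calls, 4, and with the length trend removed it also held 12 and 4. Summed over the list, AL bulbs had 1147 to 1217 CPM and aDR bulbs 1386 to 1483 CPM.

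Ciart, a repressor that binds BMAL1 (GRCm38 chromosome 3, 95878503 to 95882251, minus strand), showed the clearest change. It stood at 14.7, 14.9, 14 and 15.6 CPM in AL mice 63, 66, 68 and 69 and at 32.7, 27.9, 27.8, 33.5 and 34.3 CPM in aDR mice 61, 62, 64, 65 and 67. Every restricted bulb was well above every freely fed one, and the level rose 2.10-fold (log2 change 1.07, SE 0.088, adjusted p = 0.000208).

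Per2, which encodes a core partner of the CRY repressors, stood at 27.6, 34.4, 33.1 and 35.8 CPM in AL and at 46.4, 45.2, 53.7, 57.7 and 57.4 CPM in aDR bulbs, in the same order of mice. The groups did not overlap, and the rise was 1.58-fold (log2 0.66, SE 0.094, adjusted p = 0.0176). Nr1d1, the receptor REV-ERB alpha, stood at 128 to 146 CPM in AL bulbs, the highest in mouse 63. In aDR bulbs it lay in a narrow band of 173, 171, 173, 177 and 171 CPM, 1.30-fold higher (log2 0.37, SE 0.052, adjusted p = 0.0166). Cry2 rose as much as Nr1d1, from 147, 151, 141 and 152 CPM to 193, 190, 213, 192 and 171 CPM (log2 0.37, SE 0.062, adjusted p = 0.0351).

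The remaining PER, CRY and REV-ERB genes did not pass the test. Nr1d2, the second REV-ERB gene, had a log2 change of 0.36 (adjusted p = 0.0870), with AL bulbs at 124 to 161 CPM and aDR bulbs at 163 to 190 CPM. Per3 had 0.35 (adjusted p = 0.111), and its groups overlapped. Per1, which is also a glucocorticoid target, had 0.27 (adjusted p = 0.186), with AL at 71.4 to 92.3 CPM and aDR at 95.6 to 104 CPM. Cry1 had only 0.16 (adjusted p = 0.376), with the lowest of all its values, 40.7 CPM, in aDR mouse 65.

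Output factors of the clock were higher as well: 5 of 6 were above 0 with a median of 0.26, and Tef and Dbp rose. Tef stood at 218, 214, 212 and 231 CPM in AL and at 301, 275, 301, 321 and 286 CPM in aDR bulbs, with no overlap (log2 0.44, SE 0.054, adjusted p = 0.00847). Dbp stood at 110, 96.8, 78.7 and 92.6 CPM against 126, 125, 140, 130 and 151 CPM (log2 0.51, SE 0.090, adjusted p = 0.0432). Hlf, the third member of the PAR bZIP family, had 0.24 (adjusted p = 0.111) without overlap. The member below 0 was Nfil3, a repressor that competes with these factors for D-box sites, at -0.28 (adjusted p = 0.336), named after its value was seen.

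The activating limb of the clock had no common direction. None of its 6 genes was called, and their median was 0.014 (-0.067 without mouse 65). Arntl, the gene of BMAL1, stood at 32.5, 34.1, 36.5 and 35.4 CPM in AL and at 23.4, 27.8, 27.6, 29.7 and 24.3 CPM in aDR bulbs, with every restricted bulb lower (log2 -0.40, SE 0.077, adjusted p = 0.0643). Without mouse 65 Arntl passed the test (log2 -0.42, adjusted p = 0.0423), as it did with limma voom (-0.41, adjusted p = 0.0449) and upper quartile factors (-0.42, adjusted p = 0.0393). Npas2, a CLOCK paralogue, had a log2 change of 0.084 (adjusted p = 0.853), with 18.7 CPM in mouse 65 and 11.5 to 12.6 CPM in the other bulbs.

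**Figure D2:**
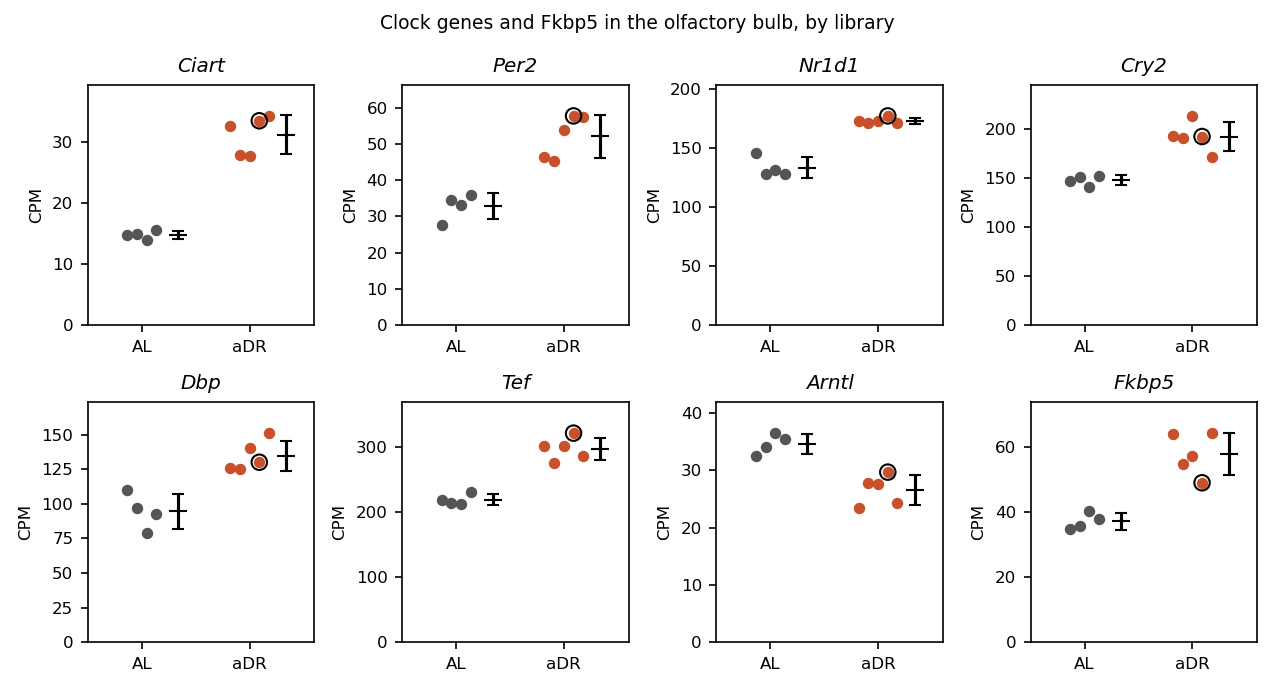
CPM (vertical axes) of 7 clock genes and Fkbp5 in each olfactory bulb library, AL (grey) and aDR (orange), with the mean and SD of each group beside the points; the ringed point is aDR mouse 65. Ciart, Per2, Nr1d1, Cry2, Dbp, Tef and Fkbp5 have every aDR point above every AL point, and Arntl has every aDR point below.

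Reads were not stranded, so part of a count can come from a gene on the opposite strand. Dbp shares 539 exonic bases with Sphk2, whose own log2 change was 0.29 (adjusted p = 0.164), and Nr1d1 shares 263 with Thra, which had 0.15 (adjusted p = 0.318). Tef shares 193 exonic bases with Gm17597 and Cry2 149 with D930015M05Rik. Outside the clock, the called genes Fgfr3 and Hrh3 share 437 bases with G630022F23Rik and 349 with Gm17180. For Ciart, Per2 and Fkbp5 the annotation holds no exon of another gene over theirs.

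Because the called clock genes moved together, their RefSeq promoters (GRCm38.p6, 250 bases before to 50 after a start) were searched on both strands for elements of the clock and of the stress response. Of the 8 called clock and glucocorticoid genes 7 had an entry, with 8 promoters between them. The E-box CACGTG was found in 4 of these 8 promoters and in 7.15% of all 32851. The stretches that hold it lie upstream of the RefSeq start and are given 5′ to 3′ with the E-boxes in capitals, since Ciart, the clearest call, holds 3 copies and each of the 2 starts of Tef holds 1.
Ciart, chr3:95882252-95882359, minus strand: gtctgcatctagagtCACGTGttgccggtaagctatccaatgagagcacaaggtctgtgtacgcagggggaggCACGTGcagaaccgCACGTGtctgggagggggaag
Tef, first start, chr15:81802531-81802566, plus strand: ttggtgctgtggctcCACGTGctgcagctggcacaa
Tef, second start, chr15:81811261-81811296, plus strand: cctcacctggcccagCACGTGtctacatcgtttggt
Fkbp5, chr17:28486298-28486333, minus strand: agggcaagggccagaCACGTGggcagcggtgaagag
The windows of Cry2, Dbp, Nr1d1 and Plin4 held none of the motifs searched. The D-box TTANGTAA (2.32% of all promoters), the ROR element TAGGTCA (2.61%), the cyclic AMP element TGACGTCA (1.79%), the FoxO site TGTTTAC (3.65%) and the glucocorticoid element (GNACA, any 3 bases, TGTNC, 0.475%) were in none of the 8. A match is a run of letters and was not measured as a bound site.

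Among 23 genes that respond to glucocorticoids, 2 passed the test. An unadjusted p under 0.05 was reached by 8 that were higher in aDR and 1 that was lower. Over all 14119 genes tested these counts were 935 and 996. In 6 of the 23 every aDR bulb lay above every AL bulb, which held for 2.90% of all genes. Of 23 genes 16 were above 0, the median was 0.067, and 2 rose, Fkbp5 and Plin4 (without mouse 65, 17 of 23, median 0.092, 2 calls). Fkbp5, a co-chaperone that dampens the glucocorticoid receptor, stood at 34.6, 35.6, 40.3 and 37.9 CPM in AL and at 63.7, 54.7, 57.1, 48.9 and 64.1 CPM in aDR bulbs. The groups did not overlap, with mouse 65 the lowest of the restricted ones (log2 0.66, SE 0.079, adjusted p = 0.00829). Plin4, a coat protein of lipid droplets, stood at 2.37, 2.14, 3.63 and 2.67 CPM against 8.57, 6.96, 8.36, 4.95 and 11.5 CPM. At 3.15-fold it had the largest rise of the called genes, at a low level (log2 1.65, SE 0.22, adjusted p = 0.0166).

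The other genes of this list did not pass the test with all libraries, nor did Fmo2, which is not on the list. Fmo2, a flavin monooxygenase, stood at 2.97 to 4.45 CPM in AL and at 12.3, 5.22, 9.59, 8.24 and 15.4 CPM in aDR bulbs (log2 1.44, adjusted p = 0.0643), and passed without mouse 65 (1.47, adjusted p = 0.0471) or mouse 62 (1.64, adjusted p = 0.00876). Zbtb16, a transcription factor gene, had 0.40 (adjusted p = 0.0951), Sgk1, a kinase, 0.66 (adjusted p = 0.164), and Tsc22d3, which encodes GILZ, 0.25 (adjusted p = 0.164). Zbtb16 and Sgk1 passed without mouse 62 (adjusted p = 0.0401 and 0.0481). Hif3a stood at 1.18 to 4.63 CPM in AL and 3.89 to 7.14 CPM in aDR bulbs (log2 1.11, adjusted p = 0.202). Further members are named after their values were seen. Sult1a1 had 0.95 without overlap (adjusted p = 0.104), and Klf9 had 0.033 (adjusted p = 0.858). The list also held 7 genes below 0, among them Cdkn1a (-0.28, adjusted p = 0.362) and Dusp1 (-0.059, adjusted p = 0.879).

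Both cold-inducible RNA-binding genes were higher, and 1 of them rose. Rbm3 stood at 120 to 134 CPM in AL and at 175, 179, 164, 149 and 164 CPM in aDR bulbs, with no overlap (log2 0.40, SE 0.060, adjusted p = 0.0188). The antisense gene Rbm3os shares 94 exonic bases with it and had 0.46 (adjusted p = 0.188). Cirbp had a log2 change of 0.25 (adjusted p = 0.206), with AL at 188 to 211 CPM and aDR at 199 to 268 CPM. In both genes the lowest restricted bulb was that of mouse 65.

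Another 7 genes rose that belong to none of these lists. Hrh3, a presynaptic histamine receptor that limits transmitter release, stood at 38.1, 40.8, 36.2 and 31.5 CPM in AL and at 53.0, 67.4, 59.7, 81.9 and 58.0 CPM in aDR bulbs (log2 0.75, SE 0.11, adjusted p = 0.0166). Its highest value was in mouse 65, and without that mouse the change was 0.69 (adjusted p = 0.00568). Tspoap1, a scaffold protein of the presynaptic active zone, had 108 to 122 CPM against 137 to 165 CPM (log2 0.42, adjusted p = 0.0176), and Pitpnm2, a phosphatidylinositol transfer protein, 119 to 122 CPM against 145 to 160 CPM (log2 0.32, adjusted p = 0.0188).

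Mertk, a receptor for the uptake of dying cells and synapses, had 18.0 to 24.1 CPM in AL and 28.9 to 36.6 CPM in aDR bulbs (log2 0.59, adjusted p = 0.0371). Fgfr3, a growth factor receptor of astrocytes, had 72.2 to 83.5 CPM against 90.3 to 100 CPM (log2 0.33, adjusted p = 0.0455). Etnppl, an astrocyte enzyme that breaks down phosphoethanolamine, had 54.7 to 59.7 CPM against 75.2 to 120 CPM (log2 0.64, adjusted p = 0.0492). The stress kinase gene Map3k6 stood at 1.47 to 2.72 CPM against 4.18 to 6.09 CPM (log2 1.23, adjusted p = 0.0369). None of these 4 genes was called once the length trend was removed (adjusted p 0.0582 for Mertk, 0.0595 for Fgfr3, 0.0908 for Etnppl and 0.0588 for Map3k6), with log2 changes of 0.56, 0.29, 0.60 and 1.19. The summed astrocyte markers overlapped between the groups (2259 to 2336 CPM in AL, 2139 to 2616 CPM in aDR, the highest in mouse 65). Without that mouse Aqp4, the water channel of astrocyte endfeet, passed the test in the other direction (log2 -0.35, adjusted p = 0.0471).

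Of the 15 genes that fell, 3 kept the call with the length trend removed, Mir670hg and Lbh among them. Mir670hg, a host transcript of a microRNA, stood at 21.8, 22.6, 22.5 and 27.0 CPM in AL and at 13.6, 15.7, 15.9, 12.1 and 15.9 CPM in aDR bulbs (log2 -0.63, SE 0.095, adjusted p = 0.0188; length trend removed, -0.58, adjusted p = 0.0332). Lbh, a transcription regulator, had 33.0 to 40.4 CPM against 24.7 to 29.0 CPM (log2 -0.45, adjusted p = 0.0351; length trend removed, -0.45, adjusted p = 0.0332). The oligodendrocyte marker sums overlapped (3812 to 4453 CPM in AL, 3795 to 4830 CPM in aDR), and Opalin, a myelin gene, had a log2 change of -0.76 that did not pass (adjusted p = 0.179).

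The other 12 did not keep the call with the trend removed. Casq2, a calcium store protein, had the largest change, from 3.18 to 4.17 CPM in AL to 1.09 to 2.14 CPM in aDR bulbs (log2 -1.19, adjusted p = 0.0492), followed by Gpr50, an orphan relative of the melatonin receptors, from 6.07 to 7.67 CPM to 3.30 to 4.20 CPM (log2 -0.80, adjusted p = 0.0455). With the length trend removed both kept their size, -1.18 and -0.81, at adjusted p of 0.0606 and 0.0582. B2m, the light chain of MHC class I, stood at 206, 223, 203 and 197 CPM against 154, 143, 151, 163 and 183 CPM (log2 -0.39, adjusted p = 0.0492), and shrank to -0.22 (adjusted p = 0.341) with the trend removed. Calr, a calcium-binding chaperone of the endoplasmic reticulum, had 245 to 252 CPM against 198 to 221 CPM (log2 -0.26, adjusted p = 0.0492). Car4, a carbonic anhydrase on the surface of capillaries, had -0.43 (adjusted p = 0.0432), and Gng11, a G protein subunit, -0.50 (adjusted p = 0.0492). Tst (-0.50, a mitochondrial sulfurtransferase), Hist1h1c (-0.54, a linker histone), S100a16 (-0.39), Bsg (-0.29, a chaperone of lactate transporters), Tpt1 (-0.27) and Cd63 (-0.33, a tetraspanin of late endosomes) made up the rest. With the trend removed, Calr (-0.23, adjusted p = 0.0590), Bsg (-0.23, adjusted p = 0.0595), S100a16 (-0.30, adjusted p = 0.0606) and Hist1h1c (-0.47, adjusted p = 0.0690) missed the threshold narrowly. Tst (-0.39), Gng11 (-0.35), Cd63 (-0.25), Car4 (-0.33) and Tpt1 (-0.16) had adjusted p of 0.101 to 0.242.

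Changes followed the length of the transcript across the whole table. Over the 14065 tested genes with a GENCODE exonic length, 76.7% of the shortest of 5 equal bins (168 to 1911 bases) had a log2 change below 0, with a median of -0.10, and 33.1% of the longest bin (5632 to 123179 bases), with a median of 0.046. The 15 genes that fell had a median length of 1560 bases and the 16 that rose 4370 bases. Per library, the shortest bin relative to the longest stood at 0.11, 0.0070, -0.047 and -0.072 in AL mice 63, 66, 68 and 69 and at -0.26, -0.034, -0.19, -0.24 and -0.059 in aDR mice 61, 62, 64, 65 and 67, on the log2 scale around the AL mean. The means differed by -0.16 with overlapping groups (exact permutation test, two-sided, p = 0.0714, a measure chosen after the data were seen). The part of this trend in each result was not tested beyond the fit that removes it.

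Genes of the cytosolic ribosome and the respiratory chain, most of them short, leaned below 0 without a call. All 73 tested genes of the cytosolic ribosome had a log2 change below 0 (median -0.21), and 84 of 86 nuclear genes of the respiratory chain (median -0.21). Of these lists 55 and 56 genes had an unadjusted p under 0.05, all lower, against 996 lower of all 14119 tested. Without mouse 65 the counts were 73 of 73 and 84 of 86. With the length trend removed they were 56 of 73 and 63 of 85, with medians of -0.057 and -0.069. The shortest bin of genes without both lists had a median of -0.092 at a median length of 1401 bases, against 963 and 934 bases for the 2 lists. Rpl30, a protein of the large subunit, stood at 218 to 253 CPM in AL and 170 to 208 CPM in aDR bulbs (log2 -0.30, adjusted p = 0.111), and Ndufa1, a subunit of complex I, at 112 to 142 CPM against 90.9 to 107 CPM (log2 -0.34, adjusted p = 0.111). Summed over the ribosome list, AL mice 63, 66, 68 and 69 had 17592, 15751, 15919 and 14557 CPM and aDR mice 61, 62, 64, 65 and 67 had 13236, 15428, 13213, 12591 and 14817 CPM, with overlap. The 13 genes of the mitochondrial genome were all below 0 (median -0.15), 12 of 13 without mouse 65, and 8 of 13 with the trend removed. Ribosomal protein genes and Tpt1 have many near-identical pseudogenes, so their counts are uncertain.

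**Figure D3:**
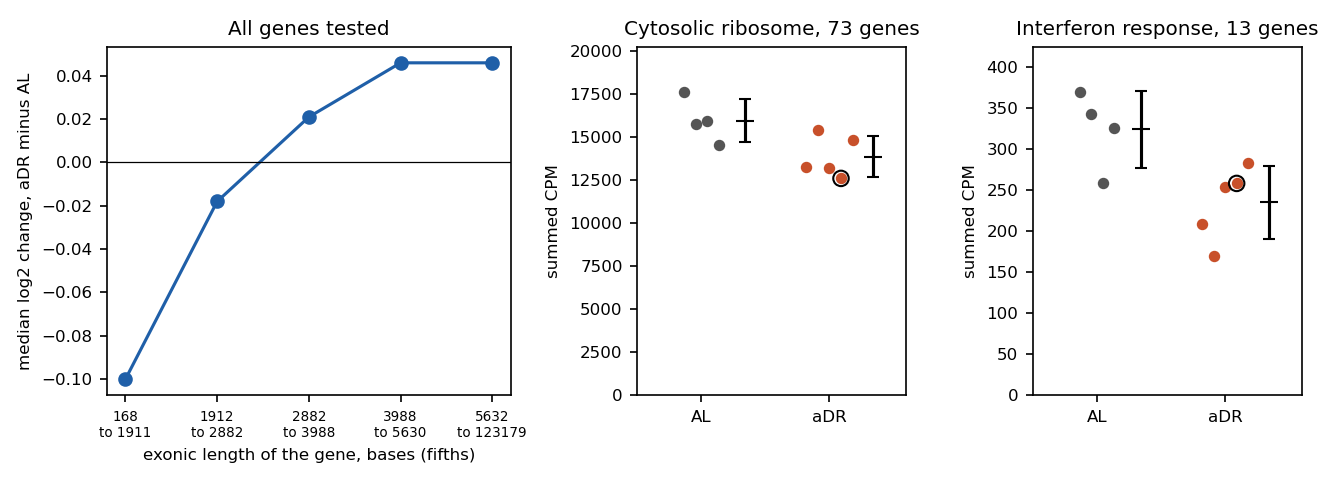
Left, the median log2 change (aDR minus AL) of all tested genes in 5 equal bins of exonic length in bases, from -0.10 in the shortest to 0.046 in the longest; middle and right, summed CPM of the 73 cytosolic ribosome genes and the 13 interferon response genes in each library, with the mean and SD of each group. The ringed point is aDR mouse 65; the groups overlap in both sums.

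Interferon-induced genes had the largest median decrease of the immune lists, without a call. All 13 were below 0 (median -0.58), 10 with an unadjusted p under 0.05, and 3 had groups without overlap. Over all 14119 genes tested, 996 were lower with such a p, and 2.23% had every aDR bulb below every AL bulb. Without mouse 65 all 13 stayed below 0 (median -0.61) with 1 call. With the length trend removed 13 of 13 were below 0 as well (median -0.42). Rtp4, an interferon-induced chaperone, had 7.71 to 13.2 CPM against 6.23 to 7.75 CPM (log2 -0.62, adjusted p = 0.160). The list summed to 369, 343, 258 and 325 CPM in AL and to 209, 170, 254, 258 and 283 CPM in aDR bulbs. AL mouse 68 lay inside the restricted range. Genes of a single pathway are not independent observations.

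Of the complement and MHC class I list 11 of 13 were below 0 (median -0.22) with B2m the single call, and 10 of 13 with the length trend removed (median -0.078, no call). Without mouse 65 it was 11 of 12 (median -0.19, 1 call). C1qa, a chain of the first complement component made by microglia, stood at 50.5 to 56.8 CPM in AL and 36.9 to 47.5 CPM in aDR bulbs (log2 -0.34, adjusted p = 0.121). The summed microglial markers were 464 to 501 CPM in AL and 428 to 479 CPM in aDR bulbs. Chaperones of the unfolded protein response were lower in 10 of 12 genes (median -0.18), also with the length trend removed (10 of 12, median -0.16). Calr was the single call as deposited and was not called with the trend removed (-0.23, adjusted p = 0.0590). Without mouse 65 the list again had 10 of 12 below 0 (median -0.18). Hsp90b1, which folds proteins of the endoplasmic reticulum, had 302 to 356 CPM against 262 to 297 CPM (log2 -0.26, adjusted p = 0.128).

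Markers of the bulb’s own cell types gave no call. Of the granule, periglomerular, mitral and tufted, and neuroblast marker lists the medians were -0.049, -0.083, -0.0045 and -0.0044, and without mouse 65 -0.0028, -0.048, 0.017 and 0.017. Th, the rate-limiting enzyme of dopamine synthesis in periglomerular cells, stood at 357, 347, 291 and 402 CPM in AL and 317, 283, 339, 214 and 328 CPM in aDR bulbs (log2 -0.22, adjusted p = 0.418), lowest in mouse 65. Nmb, a neuropeptide gene high in the bulb, had -0.45 (adjusted p = 0.164), with 29.1 CPM in mouse 65 and 50.9 to 56.5 CPM in the other restricted bulbs.

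No marker of incoming sensory axons or of the glia around them was called. Omp, the marker of mature sensory neurons, ranged from 93.8 to 292 CPM in AL and from 36.7 to 223 CPM in aDR bulbs (log2 -0.33, adjusted p = 0.753), and S100a5, whose level follows odour-driven activity, from 111 to 246 CPM and from 69.1 to 176 CPM (log2 -0.69, adjusted p = 0.284). Of the 11 sensory neuron markers 10 were below 0 (median -0.58); without AL mouse 69 the median was 0.11. Of 7 markers of olfactory ensheathing cells, the glia that wrap the sensory axons, 7 were below 0 (median -0.29, and -0.31 without mouse 65). Without aDR mouse 62 the median of these markers was -0.092, with 6 below 0. Prss56 had no overlap (log2 -0.48, adjusted p = 0.202). The 2 lists were lowest together in aDR mouse 62, at 222 and 252 CPM. How much of the outer nerve layer each dissection kept was not measured.

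Fabp7, a lipid carrier of radial glia, astrocytes and ensheathing cells, stood at 568, 628, 378 and 581 CPM in AL and at 314, 169, 379, 250 and 293 CPM in aDR bulbs (log2 -0.93, SE 0.19, adjusted p = 0.0905). The lowest value was in mouse 62, and without that mouse the change was -0.79 and passed (adjusted p = 0.0478). With all libraries Fabp7 passed in DESeq2 (-0.94, adjusted p = 0.0106) and with no filter on low counts (-0.94, adjusted p = 0.0430). Of the vessel markers, 9 of 12 endothelial genes were below 0 (median -0.23, and -0.28 without mouse 65) and 3 above, up to 0.29. Among the lower were Emcn, a surface protein of capillaries and veins (log2 -0.63, adjusted p = 0.126), and Kdr, the main VEGF receptor (-0.46, adjusted p = 0.237). The summed endothelial markers overlapped, at 480 to 535 CPM in AL (median 493) and 397 to 531 CPM in aDR bulbs (median 525). All 5 red cell markers were above 0 (median 0.93, no call), with sums of 21.2 to 63.5 CPM in AL and 43.5 to 153 CPM in aDR bulbs and the highest value in mouse 61.

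Receptors and signals of energy balance did not change by the test. The bulb is rich in insulin receptors, and Insr stood at 43.7 to 48.0 CPM in AL and 42.2 to 54.6 CPM in aDR bulbs (log2 0.087, SE 0.075, adjusted p = 0.637). Lepr, the leptin receptor, had -0.23 (SE 0.18, adjusted p = 0.606) at 4.50 to 7.69 CPM over all bulbs, and Kcna3, a potassium channel that insulin modulates in mitral cells, 0.043 (SE 0.097, adjusted p = 0.881). Of 21 genes of insulin, IGF and FoxO signalling none was called (median 0.025). Igf1 was the member with the smallest p, at 56.8 to 72.0 CPM in AL and 47.8 to 61.3 CPM in aDR bulbs (log2 -0.33, adjusted p = 0.164). Of 19 genes of cholesterol synthesis 15 were below 0 (median -0.11, no call; 18 and 1 call, Msmo1 at -0.31, without mouse 65), Fdps with no overlap (log2 -0.23, adjusted p = 0.111), and of 21 genes of lipid storage and oxidation Plin4 was the single call (median -0.00049).

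In other regions of the same mice the clock repressors leaned the same way: their median was 0.080 to 0.21 there and 0.31 in the bulb, and Per2, Cry2 and Dbp were above 0 in all 14. Ciart had 1.07 in the bulb and 0.31 to 1.23 in the 14 others, and passed the test in 6 of them. Tef had 0.44 in the bulb and 0.056 to 0.27 elsewhere, and Nr1d1 0.37 against -0.21 to 0.15. In liver (labelled DR), a peripheral clock that follows feeding, Ciart had 1.97 (adjusted p = 0.00229) but Nr1d1 -1.60 (adjusted p = 0.0254), opposite in sign to the bulb. Cry1 had 0.16 in the bulb, 0.19 to 0.55 in the other regions and 1.93 in liver (adjusted p = 0.00470). Rbm3 (0.40 against 0.43 to 0.92) and Cirbp (0.25 against 0.51 to 0.96) had their smallest change of the 15 regions in the bulb. For Rbm3 the margin was narrow, 0.40 (SE 0.060) against 0.43 (SE 0.11) in anterior hippocampus. The glucocorticoid list had its lowest median there, 0.067 against 0.15 to 0.53, while Plin4 had 1.65 against 1.02 to 2.93.

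The difference between the bulb's effect and the mean effect of the 14 others was then tested, and no gene of 15616 passed (0.00%, 584 with an unadjusted p under 0.05, smallest adjusted p 0.225). For the genes above, the difference was 0.38 for Nr1d1 (SE 0.096, adjusted p = 0.545), 0.31 for Tef (SE 0.091, adjusted p = 1.0), 0.35 for Ciart (SE 0.13, adjusted p = 1.0) and -0.41 for Cirbp (SE 0.13, adjusted p = 1.0). For Rbm3 it was -0.30 (SE 0.12) and did not pass either. Coro2a, an actin regulator, and Col1a1, a collagen chain of the meninges, had the smallest p (0.92, SE 0.21, and 1.45, SE 0.33), named after their values were seen. Coro2a stood at 3.8 to 5.48 CPM in AL and at 11.2, 5.12, 7.55, 17.6 and 7.23 CPM in aDR bulbs, the highest in mouse 65; its difference was 0.73 without that mouse (adjusted p = 1.0) and passed without mouse 62 (1.11, adjusted p = 0.0325). Col1a1 stood at 18.2 to 29.8 CPM and at 79.5, 97.8, 21.6, 59.3 and 17.8 CPM, so that the restricted bulbs split, and it passed without mouse 64 (1.64, adjusted p = 0.0342) or mouse 67 (1.70, adjusted p = 0.00855). With the mouse as a block, which pairs the regions of each animal, no gene passed either.

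Against the mean of motor and visual cortex alone, 4 of 14370 genes differed (0.0278%), again chosen after their values were seen. This contrast did not pair the regions of each mouse, and no paired form of it was run. Nr1d1 had 0.37 in the bulb, 0.022 in motor and -0.034 in visual cortex, a difference of 0.39 (SE 0.072, adjusted p = 0.0337). Car4 fell in the bulb (-0.43) and had 0.19 and 0.24 in the cortical regions (difference -0.63, adjusted p = 0.00103). Over all 14 other regions Car4 was below 0 in 9 and above 0 in 5. It had -0.57 in pons, -0.44 in medulla and -0.42 in hypothalamus, so the fall was not particular to the bulb. Klhl40, named here for this difference of -0.76 (adjusted p = 9.32e-05), had -0.16 in the bulb and 0.54 and 0.68 in cortex, and Cbln2, a synaptic organiser, 0.18 against -0.29 and -0.42 (difference 0.55, adjusted p = 0.0472). Without the bulb library of mouse 65, Klhl40 (-0.74, adjusted p = 0.000169) and Car4 (-0.62, adjusted p = 0.00204) passed, and Nr1d1 (0.38, adjusted p = 0.0654) and Cbln2 (0.53, adjusted p = 0.0794) did not.

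**Figure D4:**
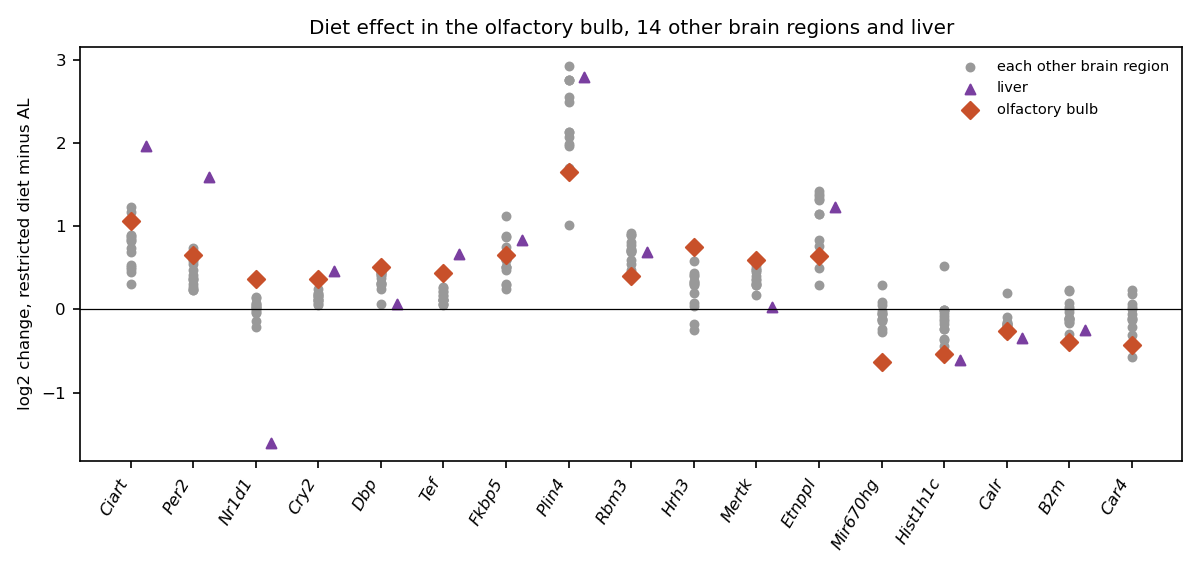
Log2 change (vertical axis, restricted minus freely fed) of 17 called genes in the olfactory bulb (diamonds), in each of the 14 other brain regions (grey points) and in liver (triangles, where tested). The bulb lies above every other brain region for Nr1d1, Tef, Hrh3 and, narrowly, Cry2 (0.37 against at most 0.35). It lies below every other brain region for Hist1h1c, B2m and, narrowly, Rbm3 (0.40 against at least 0.43). Liver Nr1d1 lies at -1.60.

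Bulbs of the plasma experiment, which share no animal with those above, give a second intervention in the same tissue. In males given young plasma, 0 of 13948 genes passed the test (edgeR, 1233 with an unadjusted p under 0.05, smallest adjusted p 0.0637). Ciart had a log2 change of 0.15 there (adjusted p = 0.844), Tef -0.095 (adjusted p = 0.704), Nr1d1 -0.14 (adjusted p = 0.647), Per2 0.24 (adjusted p = 0.572), Fkbp5 -0.014 (adjusted p = 1.0) and Rbm3 0.017 (adjusted p = 0.999). Sgk1 was the gene with the smallest p, at 1.11 (adjusted p = 0.0637), against 0.66 with diet. Of the 31 genes called with diet, 10 had the same sign with plasma. An unadjusted p under 0.05 (edgeR) was reached by 5 of the 31, against 1233 of all 13948. Those 5 all moved opposite to their change with diet: Tspoap1 (-0.28), Mir670hg (0.31), Tpt1 (0.18), Calr (0.19) and Cd63 (0.14). Diet and plasma were given to different sexes with different numbers of mice, so the difference between them was not tested.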

How the data were processed

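Per the labels, RNA from homogenised bulbs was made into cDNA with Smart-Seq2 and into unstranded libraries with Nextera XT. The deposited values are whole-number read counts per gene, made by the authors; per the submitters' processing notes, Trim Galore 0.3.7, STAR 2.5.3a, DESeq2 and the build GRCm38 were used, with no order given. The counting program and annotation are not given in the sources used here.

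The members, gene lists and tests were chosen with earlier results of these data known. From the counts, genes were kept by filterByExpr (minimum count 10, minimum total 15), scaled by TMM and compared in edgeR 4.0.16 under R 4.3.3 by its quasi-likelihood F-test, 5 aDR against 4 AL libraries, without covariates. P-values were adjusted by Benjamini-Hochberg over all genes tested, and an adjusted p under 0.05 is a call. SE is the log2 change divided by the square root of F. Differences from the other 14 regions were contrasts of a fit over all brain libraries of the dietary experiment. The contrast with motor and visual cortex came from a separate fit to the bulb and those cortical libraries, without the mouse as a block. Alternatives used limma 3.58.1 and DESeq2 1.42.0. An alternative chosen after seeing the data removed each library's lowess trend of log2 CPM on exonic length (GENCODE vM21 basic, GRCm38). The fits recovered changes built into counts simulated from the bulb's means and library sizes. The simulated difference fit held fewer regions than the data, all alike. It therefore does not show how well that test finds a difference in the real regions. Genes were named by rule: up to 20 calls in each direction, the calls of the difference test, called or leading members of each list, and a fixed set of clock, glucocorticoid, cold-response and olfactory genes. Results for some genes are not reported here.

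Mouse numbers mark the same animal across regions, per the labels. Deviations from group means correlated by 0.026 on average over 122 pairs of regions of the same mouse, 13.1% of them over 0.1, and by -0.0031 between mice. Duplicate libraries were looked for in 16 replicate pairs; chi-square per degree of freedom was at least 2.41. Totals of 1.83 to 14.6 M counts limit the precision of each library. The SDs, and the SEs from the quasi-likelihood F-test, include the spread between mice.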

Additional observations from a re-analysis of the deposited data

Results flagged for a closer look

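In 162 groups of values checked for a library far from the rest of its group, 10 had one, where chance gives about 1 in 20 groups (8.10). In aDR mouse 65, the shallowest library, 6 values stood apart: Neurod6 at 23.1 CPM against 1.33 to 3.00 CPM, Lepr at 7.69 against 4.50 to 5.12 CPM, Nmb at 29.1 against 50.9 to 56.5 CPM, Cry1 at 40.7 against 52.0 to 55.1 CPM, Pitpnm2 at 160 against 145 to 149 CPM, and 11934 genes with at least 10 counts against 13659 to 14155. Etnppl stood at 120 CPM in aDR mouse 67 against 75.2 to 85.7 CPM in the other restricted bulbs. In AL mouse 69, Mir670hg stood at 27.0 CPM against 21.8 to 22.6 CPM and Coro2a at 5.48 against 3.8 to 3.99 CPM. In AL mouse 68, Col1a1 stood at 18.2 CPM against 28.2 to 29.8 CPM.

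The diet effect in the bulb differed from that in motor and visual cortex for 4 genes by an edgeR test of the difference, not paired by mouse. On the log2 scale the differences were -0.76 for Klhl40 (SE 0.095, adjusted p = 9.32e-05), -0.63 for Car4 (SE 0.092, adjusted p = 0.00103), 0.39 for Nr1d1 (SE 0.072, adjusted p = 0.0337) and 0.55 for Cbln2 (SE 0.11, adjusted p = 0.0472). Without the bulb library of mouse 65, Nr1d1 (0.38, adjusted p = 0.0654) and Cbln2 (0.53, adjusted p = 0.0794) did not pass. Against the mean of all 14 other regions none of the 4 passed.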

How the results depend on the processing

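With 31 genes called in the bulb, counts stayed within 1.5 times under RLE (31) and upper quartile factors (30), no filter on low counts (33), a filter on a mean of 1 CPM (25), the library total as covariate (22), limma voom (36), and a newer edgeR dispersion (33), the last chosen after seeing the data. DESeq2 called 122; its own filter left 9581 genes, 16 of the 31 among them, without an adjusted p, and it called the other 15. Leaving out each library in turn gave 2 to 48 calls, and the length-trend fit 15. The share of higher genes was 51.6% as reported, 63.6% with the library total as covariate, 80.0% with the length trend removed, 43.3% with upper quartile factors, and 47.9% to 100% with a library left out (all higher without aDR mouse 61, AL mouse 63 or aDR mouse 64). The median of all genes was 0.0042 as reported and -0.016 with upper quartile factors, and none of the genes followed across settings changed direction. The difference of the bulb from the other regions had 0 calls as reported and 0 with the mouse as a replicate block, the paired analysis. Leaving out each mouse gave 0 to 1 calls of that difference. Against motor and visual cortex, not paired by mouse, the difference had 4 calls. Without the bulb library of mouse 65, an alternative chosen after seeing the data, it had 2. The lower mitochondrial share in aDR was -0.358 percentage points, -0.452 to -0.212 with a library left out, and past the threshold in 1 of those fits; the share of the 10 most abundant genes was -0.414, and -0.517 to -0.250 with a library left out, past the threshold without AL mouse 63. Depth limits aDR mouse 65 most.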
